A study of Mus musculus with 144 samples.

Results

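The RNAs of Arntl (also called Bmal1), Clock and Npas2, which encode the activating transcription factors of the circadian clock, were followed in mouse liver over the day. They are 3 of the 51912 genes in the gene table, taken by name, and 14 of the 29199 polyadenylation sites in the authors' filtered list lie in them. The study sequenced the 3′ ends of polyadenylated RNA from livers of male C57BL/6J mice, kept in a light cycle of 12 h and 12 h and fed ad libitum. Total, nuclear and polysomal RNA came from wild-type mice, and total RNA also from Bmal1-/- mice. Each of these 4 series had 36 libraries, 6 for each zeitgeber time (ZT, counted in hours from lights on): ZT2, ZT6, ZT10, ZT14, ZT18 and ZT22. Nuclei were spun through a sucrose cushion after hypotonic washes of homogenized frozen tissue, and polysomes came from a sucrose gradient of tissue crushed in a buffer with cycloheximide. The labels give no age, no statement that replicates are separate mice, and no description of the altered part of Bmal1. The p-values below therefore measure the spread between libraries, and reads at the 3′ end of Arntl do not check the genotype label.

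BMAL1, the protein of Arntl, pairs with CLOCK or with NPAS2, a close relative of CLOCK. The pair binds E-box elements and switches on the Period and Cryptochrome genes, whose products repress it, and the nuclear receptor genes Nr1d1 and Nr1d2. NR1D1 and NR1D2 (REV-ERB alpha and beta) repress genes that carry ROR elements, while ROR receptors activate them. Arntl, Clock and Npas2 are known ROR-element targets, and in liver their RNAs are known to be low late in the light phase, when REV-ERB is abundant.

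The promoter windows below are shown because the ROR element links these genes to REV-ERB and ROR. RefSeq sequence of GRCm38.p6, from 250 bases before to 50 after an annotated start, was searched on both strands for 3 motifs. They were TNGGTCA (a loose pattern for the ROR element core, with any base at N), CACGTG (an E-box) and TTANGTAA (a D-box element). Windows were given for all 3 genes: 2 for Arntl, 3 for Clock and 1 for Npas2. The second Arntl window (chr7:113207261-113207560, + strand) held 3 matches to TNGGTCA, in capitals, which begin at bases 5, 24 and 281 of the window. The first Arntl window overlaps it and held 2. The Npas2 window (chr1:39194022-39194321, + strand) held none of the 3 motifs, nor did the 3 Clock windows. Of 32851 windows of the same length, 11% held TNGGTCA, 7.15% CACGTG and 2.32% TTANGTAA.
Arntl, second window: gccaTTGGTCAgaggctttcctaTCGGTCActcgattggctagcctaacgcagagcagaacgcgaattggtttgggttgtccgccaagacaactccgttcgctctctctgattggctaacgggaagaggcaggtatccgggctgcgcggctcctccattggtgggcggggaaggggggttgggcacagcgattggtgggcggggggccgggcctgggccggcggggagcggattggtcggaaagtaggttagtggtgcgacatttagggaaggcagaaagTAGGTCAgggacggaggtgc
Npas2: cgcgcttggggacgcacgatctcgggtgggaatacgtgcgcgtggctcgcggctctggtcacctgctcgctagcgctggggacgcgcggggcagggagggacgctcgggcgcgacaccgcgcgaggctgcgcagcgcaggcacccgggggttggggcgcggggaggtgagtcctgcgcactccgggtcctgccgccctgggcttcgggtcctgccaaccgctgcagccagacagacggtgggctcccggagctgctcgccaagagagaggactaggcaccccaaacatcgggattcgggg

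The gene counts of a library summed to 5316601 to 9831142 for wild-type total, 1662449 to 6620128 for nuclear, 2578048 to 13068044 for polysomal and 4379549 to 14281894 for Bmal1-/- total RNA. Levels are in CPM, which scales each library's gene counts to the same total. Summed hepatocyte markers (Alb, Apoa1, Ttr, Cps1, Cyp2e1 and Hnf4a) lay between 13610 and 109967 CPM in all libraries. Xist, an RNA of female cells, was between 165 and 4363 CPM in 4 ZT22 libraries, 1 per series, although all mice are labelled male. These were replicate 5 of wild-type total and of nuclear, replicate 1 of polysomal and replicate 6 of Bmal1-/- total RNA. Xist was at most 5.67 CPM in the other 140 libraries. In bulk tissue, fewer cells of a type and less RNA per cell cannot be told apart.

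In each wild-type series, 1 ZT14 library stood apart from the other 5 in Npas2 and in other clock genes. In total RNA it was replicate 4, where Npas2 was at 6.06 CPM against at most 0.22 in the others, Clock at 52.1 against at most 35.7, and Arntl at 8.17 against at most 5.48. In nuclear RNA it was replicate 4, with Npas2 at 6.65 CPM against at most 0.630 and Arntl at 53.4 against at most 44.1, while Clock, at 31.9, lay within the range of the others (11.4 to 34.3). In polysomal RNA it was replicate 3, with Npas2 at 14.4 against 0 and Clock at 43.4 against at most 25.4, while Arntl was at 0 and below the others (0.974 to 4.15). Of 23 other clock genes listed below, the total library lay above the range of the other 5 for 5 and below it for 10, the nuclear library for 3 and 8, and the polysomal library for 5 and 12. In the library labelled wild-type total ZT14 replicate 4, 18 of the 23 genes lay within the range of the Bmal1-/- ZT14 libraries, against 5 to 7 in the other 5 wild-type libraries. The cause was not tested. Values are given with these 3 libraries and, where they matter, without them, a choice made after the data were seen. The libraries were picked in part by their Npas2 level, so p-values of Npas2 without them are a description only.

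In wild-type total RNA, all 3 activator genes were highest from ZT22 to ZT2 and lowest at ZT10. Arntl, the partner common to both pairs, had lowest, median and highest values of 8.14, 12.4 and 19.3 CPM at ZT22 and of 4.87, 12.8 and 14.7 at ZT2. It was at 0.534, 1.42 and 4.40 CPM at ZT6, at 0.251, 0.769 and 1.63 at ZT10, at 1.0, 2.78 and 8.17 at ZT14, and at 7.45, 10.1 and 11.7 at ZT18. The ranges of ZT18, ZT22 and ZT2 overlapped each other, as did those of ZT6, ZT10 and ZT14, ZT14 also reached into the range of ZT2 and, through replicate 4, of ZT18 and ZT22, and every ZT10 library was below every library of ZT18, ZT22 and ZT2. By the mean, the order from low to high was ZT10, ZT6, ZT14, ZT18, ZT2 and ZT22, and the highest mean was 14.8 times the lowest.

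Clock, the DNA-binding partner of BMAL1, varied less. It was at 41.0, 49.9 and 73.5 CPM at ZT2 (lowest, median, highest), at 34.1, 35.7 and 45.2 at ZT6, and at 15.8, 22 and 26.5 at ZT10. At ZT14 it was at 23.2, 32.8 and 52.1, at ZT18 at 36, 42.1 and 49.5, and at ZT22 at 42.0, 48.0 and 52.8 CPM. The order of means was ZT10, ZT14, ZT6, ZT18, ZT22 and ZT2, and neighbours in this order overlapped, while the ZT10 libraries lay below all those of ZT6, ZT18, ZT22 and ZT2. The highest mean was 2.41 times the lowest.

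Npas2, which can take the place of CLOCK in the pair, was near the limit of detection for most of the day. It was at 2.37, 3.03 and 5.08 CPM at ZT2 and at 1.32, 2.29 and 2.71 at ZT22. At ZT6 the values were 0, 0.204 and 2.06, at ZT10 0, 0 and 0.251, at ZT14 0, 0.0548 and 6.06, and at ZT18 0, 0.289 and 1.01. All 6 ZT22 libraries and all 6 ZT2 libraries were above the ZT10 and ZT18 libraries, while the ranges of ZT6, ZT10, ZT14 and ZT18 overlapped. The 6 ZT10 libraries held 3 Npas2 counts in all.

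A 24 h cosine was fitted to the counts of each series with edgeR's quasi-likelihood test, with Benjamini-Hochberg adjustment over all genes and a threshold of 0.05. In wild-type total RNA all 3 genes passed, as did 15.4% of all genes tested. Arntl peaked at ZT21.7 (SE 0.35 h) with a log2 peak-to-trough difference of 3.83 (SE 0.37, adjusted p = 1.96e-08). Clock peaked at ZT22.8 (SE 0.48 h) with a difference of 1.10 (SE 0.14, adjusted p = 2.03e-06). Npas2 peaked at ZT23.9 (SE 0.98 h) with a difference of 3.13 (SE 0.84, adjusted p = 0.0134). Without the ZT14 library that stood apart, the Npas2 difference was 6.03 with a peak at ZT0.595, a fitted value that rests on very low counts at the trough. With replicates 4 to 6 alone, which include that library, the adjusted p for Npas2 was 0.513.

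In Bmal1-/- liver the low levels seen around ZT10 in wild type were absent for all 3 genes, and Npas2 was above wild type at all hours by its mean. Arntl in Bmal1-/- liver ranged from 5.17 to 18.6 CPM over 36 libraries, with medians by time point between 9.35 and 12.7. Clock ranged from 33.9 to 68.4 with medians between 45.0 and 55.2, and Npas2 from 3.10 to 10.6 with medians between 5.81 and 9.17. The highest mean of a time point was 1.43 times the lowest for Arntl, 1.25 times for Clock and 1.46 times for Npas2. None of the 3 passed the rhythm test in Bmal1-/- liver (adjusted p = 0.9999 for each, unadjusted p = 0.249, 0.0525 and 0.559), where 0.0337% of genes passed.

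**Figure D1:**
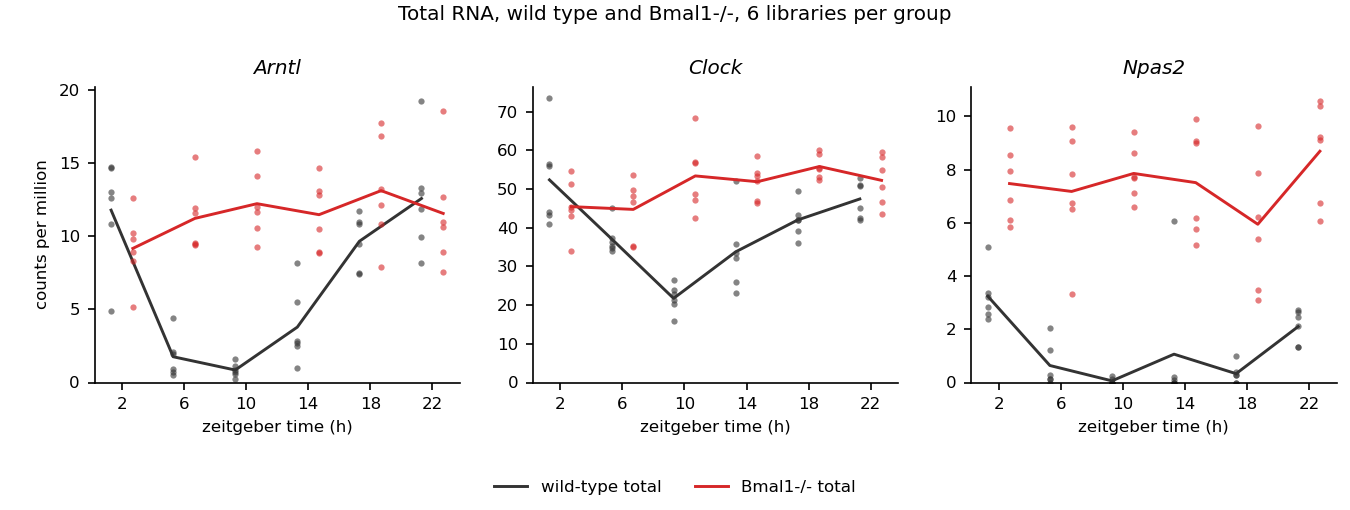
CPM (y axis, linear, from 0) against zeitgeber time (x axis, hours) for Arntl, Clock and Npas2 in total RNA. Points are libraries, 6 per group, and lines join the means of wild type (grey) and Bmal1-/- (red); the wild-type lines dip at ZT10, while the Bmal1-/- means differ by at most 1.46 times between time points.

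The change in rhythm was tested as the interaction of genotype with the cosine. All 3 genes passed, with adjusted p = 1.65e-10 for Arntl, 6.60e-06 for Clock and 0.0123 for Npas2, against 4.06% of genes tested. Without the ZT14 library the value for Npas2 was 2.53e-12, a description only, since that library was picked in part by its Npas2 level. With replicates 4 to 6 alone, the adjusted p was 0.0609 for Clock and 0.578 for Npas2.

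Averaged over the 6 time points, the 3 RNAs were higher in Bmal1-/- liver. The mean log2 difference was 1.25 for Arntl (SE 0.12, 2.37-fold, adjusted p = 2.42e-13), 0.33 for Clock (SE 0.05, 1.26-fold, adjusted p = 4.30e-07) and 3.31 for Npas2 (SE 0.24, adjusted p = 1.15e-18). Of all genes, 40.9% passed this test 21.3% with higher and 19.6% with lower values. Without the ZT14 library the Npas2 difference was 3.89. With replicates 4 to 6 alone the Clock difference was 0.21, with adjusted p = 0.0832.

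The differences were concentrated in the hours when the wild-type level was low. At ZT10, Arntl was at 9.26, 11.8 and 15.8 CPM in Bmal1-/- liver, so that the groups did not overlap, and the fitted log2 difference was 3.73 (SE 0.35, adjusted p = 9.43e-13). Clock was at 42.5, 52.7 and 68.4 CPM, also without overlap, with a difference of 1.24 (SE 0.13, adjusted p = 5.31e-11). Npas2 was at 6.59, 7.70 and 9.42 CPM, and the 368 counts in Bmal1-/- against 3 in wild type give a ratio of 125 (95% interval 42.4 to 609, counting error only). All 3 passed at ZT10, where 14% of genes did.

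At ZT6 and ZT14 the picture was the same for Arntl and Npas2. Arntl was higher by 2.60 at ZT6 (SE 0.32, adjusted p = 1.98e-08) and by 1.55 at ZT14 (SE 0.30, adjusted p = 1.87e-04), with no overlap between groups at either time. Npas2 was higher by 3.41 at ZT6 (SE 0.56, adjusted p = 1.52e-05) and by 2.91 at ZT14 (SE 0.53, adjusted p = 8.19e-05). The Npas2 groups overlapped at ZT14 only through the library labelled wild-type replicate 4, and the fitted difference without it was 6.34. Clock was higher by 0.55 at ZT14 (SE 0.13, adjusted p = 0.00315) and did not pass at ZT6 (0.22, adjusted p = 0.336). At ZT6 8.64% of genes passed and at ZT14 8.12%.

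From ZT18 to ZT2, Arntl and Clock did not pass. The log2 differences of Arntl were 0.26 at ZT18 (95% interval -0.28 to 0.80), -0.26 at ZT22 (-0.80 to 0.28) and -0.41 at ZT2 (-0.96 to 0.13). Those of Clock were 0.23 at ZT18 (-0.03 to 0.48), 0.03 at ZT22 (-0.22 to 0.28) and -0.27 at ZT2 (-0.53 to -0.02, unadjusted). Adjusted p-values of both genes lay between 0.196 and 0.945, although all 6 Clock libraries at ZT18 were above the wild-type ones, with a lowest value of 52.2 CPM.

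Npas2 stayed above wild type at these hours too. It was at 3.10, 5.81 and 9.62 CPM in Bmal1-/- liver at ZT18 (log2 difference 3.86, SE 0.62, adjusted p = 7.33e-06) and at 6.07, 9.17 and 10.6 at ZT22 (1.95, SE 0.48, adjusted p = 0.00609). At ZT2 it was at 5.84, 7.40 and 9.56 CPM, above all 6 wild-type libraries, with a difference of 1.16 (SE 0.46, adjusted p = 0.112), and with adjusted p = 0.0191 without the ZT14 library. In all, the groups did not overlap at 5 of 6 time points for Npas2, 3 for Arntl and 2 for Clock. The share of all genes without overlap is not given here, so these counts are a description only. The share of all genes passing the edgeR test was 10.4% at ZT18, 5.93% at ZT22 and 7.92% at ZT2.

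**Figure D2:**
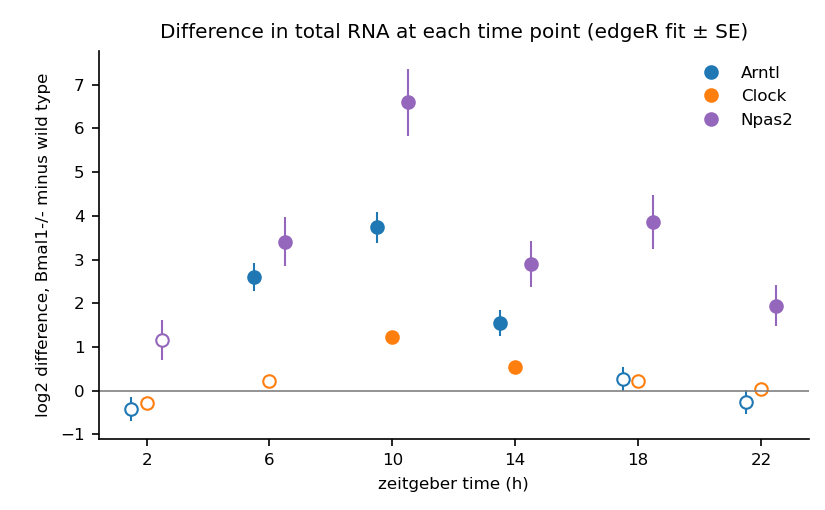
Fitted log2 difference between Bmal1-/- and wild-type total RNA (y axis) at each zeitgeber time (x axis, hours) for the 3 genes, with bars of 1 standard error and 6 libraries per group. Filled points passed an adjusted p of 0.05 and open points did not; the 3 genes have their largest value at ZT10, between 1.24 and 6.60, of which the Npas2 value rests on 3 wild-type counts.

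Marker lists of other cell types were summed in the same total RNA libraries. The summed level of 5 cholangiocyte markers (Krt19, Krt7, Epcam, Sox9 and Spp1) had a median of 73.5 CPM in Bmal1-/- (45.8 to 136) and 25.7 in wild-type total RNA (16.2 to 66.6). Without Sox9 the medians were 18.2 (5.24 to 57.3) and 8.30 (2.26 to 14.7). The sum of 5 stellate cell markers (Dcn, Lrat, Reln, Hgf and Rgs5) had a median of 359 CPM (294 to 497) against 275 (highest 371), and that of 6 exocrine pancreas markers 104 (16.6 to 186) against 35.0 (15.0 to 94.8). None of the cholangiocyte and stellate markers was at 0 in all libraries of a series, while Prss2, Ctrb1 and Pnlip of the pancreas list were at 0 in wild-type total RNA. The Bmal1-/- and wild-type medians were 289 and 276 CPM for sinusoidal endothelial markers, 201 and 222 for Kupffer cell markers, 1.04 and 1.03 for lymphocyte markers, 0.109 and 1.32 for adipocyte markers, and 52238 and 67057 for the hepatocyte markers. All of these lists overlapped between the genotypes, and none of the lists was tested. Their part in the Npas2 difference was not tested.

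Other clock genes were counted by role, from 23 genes of which 22 were tested against Bmal1-/-. Of 8 E-box repressors and targets, 3 rose and 3 fell, with a median log2 difference of 0.19, where 21.3% of all genes rose and 19.6% fell. Ciart, a repressor of the activator pair, was at 3.75 ± 5.41 CPM (SD, n = 36) in wild type and at 0.0801 ± 0.185 in Bmal1-/- (adjusted p = 1.88e-09). Of the 4 nuclear receptors acting at ROR elements, 2 fell and 2 rose, with a median of -1.27, and the 2 with the largest change were Nr1d1, which fell by 3.38 (SE 0.25), and Nr1d2, which fell by 2.77 (SE 0.14). Of 4 D-box factors, Dbp fell by 1.75 (SE 0.17) and Nfil3 rose by 0.44 (SE 0.07), and of 6 kinases and ubiquitin ligases, Csnk1e rose by 0.29 (SE 0.09) and Fbxl21 by 0.40 (SE 0.17, adjusted p = 0.0497). The median over the 22 was 0.11, and over all genes 0.01. In wild-type total RNA 16 of the 22 passed the rhythm test, against 15.4% of all genes, and 12 of 22 passed the interaction, against 4.06%. In Bmal1-/- none of 20 passed the rhythm test, where 0.0337% of all genes did. Arntl2, the paralog of Arntl, was at 0.25 ± 0.206 CPM in wild type and 0.146 ± 0.182 in Bmal1-/- and was too low to be tested.

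Arntl RNA was higher in the nuclear fraction than in total RNA, and Clock RNA was lower. Over the 36 libraries of a series, Arntl was at 37.7 ± 33.4 CPM (SD) in nuclear, 6.73 ± 5.40 in total and 5.55 ± 5.48 in polysomal RNA, where the SD includes the daily change. Nuclear values of Arntl had lowest, median and highest values of 33.3, 74.0 and 123 CPM at ZT22 and of 0, 2.31 and 7.32 at ZT10, and all 6 nuclear libraries were above all total libraries at ZT2, ZT18 and ZT22. The mean log2 difference was 2.22 (SE 0.18, adjusted p = 6.52e-18), 4.66-fold. Clock was at 25.5 ± 11.4 CPM in nuclear and 39.1 ± 12.1 in total RNA, with no overlap at ZT2 and ZT22. Its log2 difference was -0.76 (SE 0.08, adjusted p = 4.19e-14). The share of all genes without overlap is not given here, so the lack of overlap for Arntl and Clock is a description only. For Npas2, at 1.16 ± 1.85 CPM in nuclear and 1.24 ± 1.56 in total RNA, the adjusted p of the gene counts was 0.253. The gene count of Npas2 leaves out many site counts. Its mean was 4.86 per nuclear and 9.39 per total library, while all 20 Npas2 sites summed to 90.0 and 29.3, with no test of that sum. The gene counts thus do not show that Npas2 RNA is alike in nuclear and total RNA. In the comparison of gene counts, 81.5% of all genes tested passed, 41.6% with higher and 39.9% with lower nuclear values.

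By the gene counts, Arntl and Clock were lower in polysomal than in total RNA. The mean of the most counted Clock site, described below, was higher in polysomal RNA, but its ranges overlapped and it was not tested. The log2 difference of the gene counts was -0.72 for Arntl (SE 0.20, adjusted p = 9.69e-04) and -0.53 for Clock (SE 0.09, adjusted p = 2.35e-07). The median over all genes was -0.15 and 72.7% of genes passed, 30.5% with higher and 42.3% with lower values. All Arntl groups overlapped between polysomal and total RNA. The polysomal Arntl values at ZT10 were 0, 0 and 0.864 CPM, and those at ZT2 6.94, 11.7 and 20.5. Polysomal Clock lay below total at ZT18 (15.5, 22.5 and 27.1 CPM) and ZT22 (30.3, 38.7 and 41.6) in all libraries. This too is a description only, as the share of all genes without overlap is not given. With replicates 1 to 3 alone the Clock difference was -0.21, with adjusted p = 0.1003. Summed lung airway markers (Scgb1a1 and Sftpc) were at 55.8 to 915 CPM in the 6 libraries of polysomal replicate 1 and at most 1.45 in the other polysomal libraries, and at most 0.109 in total RNA. The exocrine pancreas markers reached 5018 CPM at ZT2 and 1560 at ZT10 in polysomal replicate 3, against at most 112 in the other polysomal and 94.8 in the total libraries. With replicates 4 to 6 alone, which hold none of these libraries, the differences were -0.55 for Arntl (adjusted p = 0.0464) and -0.80 for Clock (adjusted p = 3.32e-08). Npas2 was at 1.52 ± 2.74 CPM in polysomal RNA (adjusted p = 0.368, and 0.0347 with a difference of -0.97 without the ZT14 libraries).

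The Npas2 gene count was 0 in each of the 6 nuclear and the 6 polysomal libraries at ZT10. This allows a level of up to 0.111 CPM in nuclear and 0.0961 in polysomal RNA (3 counts over the group, counting error only). Against that limit the nuclear level at ZT22 was at least 22.6-fold higher and the polysomal level at ZT2 at least 39.7-fold higher. Nuclear Npas2 at ZT22 was at 0.222, 2.33 and 6.47 CPM, and polysomal Npas2 at ZT2 at 1.33, 3.6 and 5.58.

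**Figure D3:**
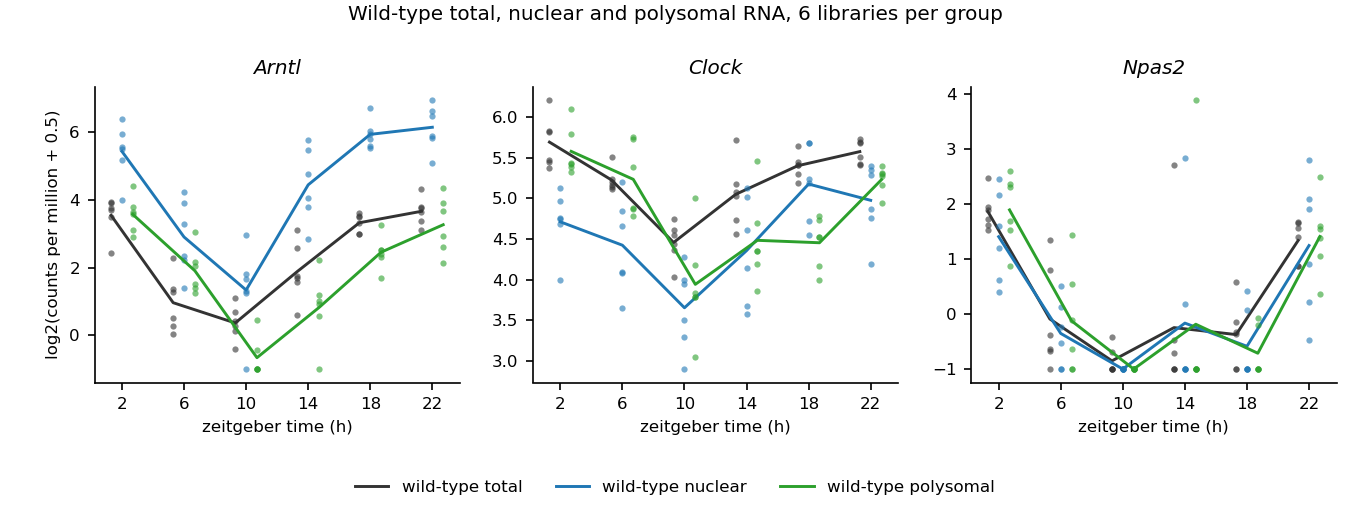
log2(CPM + 0.5) of Arntl, Clock and Npas2 (y axis) against zeitgeber time (x axis, hours) in wild-type total, nuclear and polysomal RNA, with 6 libraries (points) per group and lines through the means of the log2 values. The nuclear Arntl mean lies above the total mean at every time point (with all libraries at ZT2, ZT18 and ZT22), and the isolated high Npas2 points at ZT14 are the 3 libraries that stood apart.

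The rhythm was also present in both fractions for Arntl and Clock. Nuclear Arntl peaked at ZT21.0 (SE 0.37 h, log2 peak-to-trough difference 4.26, adjusted p = 6.22e-07) and polysomal Arntl at ZT23.1 (SE 0.43 h, 4.24, adjusted p = 1.33e-06). Nuclear Clock peaked at ZT21.3 (SE 0.60 h, 1.25, adjusted p = 1.27e-04) and polysomal Clock at ZT0.947 (SE 0.70 h, 1.23, adjusted p = 9.14e-04). For both genes the fitted peak was earliest in nuclear and latest in polysomal RNA, but the difference in rhythm from total RNA did not pass. The nuclear fit did not pair libraries by replicate number, and 353 of 14678 genes had an unadjusted p under 0.05, fewer than chance alone gives. It can thus miss differences, and the absence of a call does not show equal peaks. The adjusted p there was 0.9997 for each gene, 0.0% of genes passed, and DESeq2 also called none. In the polysomal comparison it was 0.672 for Arntl, 0.786 for Clock and 1.0 for Npas2, with 0.107% of genes passing. Shares of genes passing the rhythm test were 4.91% in nuclear and 6.14% in polysomal RNA.

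Npas2 did not pass the rhythm test in nuclear (adjusted p = 0.114) or polysomal RNA (adjusted p = 0.513) with all libraries and no replicate block. Without the 1 ZT14 library of each series it passed in both, with peaks at ZT0.0982 (SE 0.41 h, adjusted p = 7.02e-08) and ZT0.811 (SE 0.35 h, adjusted p = 1.98e-08). These libraries were picked in part because Npas2 was high in them, so the Npas2 values without them are a description only. The peaks of Arntl and Clock moved by less than their SE when the same libraries were left out. With replicates 4 to 6 alone the adjusted p of nuclear Clock was 0.0517, and with replicates 1 to 3 alone that of polysomal Clock was 0.274.

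**Figure D4:**
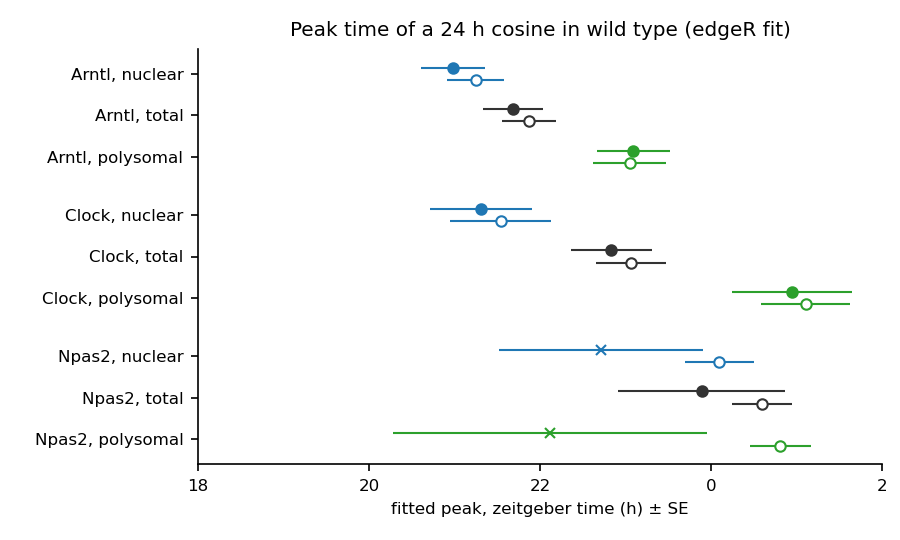
Fitted peak of a 24 h cosine (x axis, zeitgeber time in hours, running past lights on to ZT2) with bars of 1 standard error, for each gene and wild-type series (y axis). Filled circles passed with all 36 libraries and crosses did not. Open circles are the fits without the 1 ZT14 library that stood apart, all of which passed, but that library was picked in part by its Npas2 level. Arntl and Clock lie between ZT21.0 and ZT0.947 with all libraries.

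Of the other clock genes, 10 of 22 tested rose and 8 fell in nuclear against total RNA, where 41.6% of all genes rose and 39.9% fell. Their median was 0.28, against 0.03 over all genes. Per3 was higher by 2.45 (SE 0.20) and Cry2, another repressor, by 1.75 (SE 0.09), while Nr1d2 was lower, at -2.15 (SE 0.17). In polysomal RNA 4 rose and 7 fell, where 30.5% of all genes rose and 42.3% fell, with a median of 0.03 against -0.15 over all genes. There Nr1d1 was higher by 0.90 (SE 0.22) and Hlf, a D-box factor, by 0.57 (SE 0.09), while Bhlhe41 was at -1.12 (SE 0.33). Of the listed genes, 14 of 23 passed the rhythm test in nuclear and 15 of 22 in polysomal RNA, where 4.91% and 6.14% of all genes passed.

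The sites where the RNAs end are given with the mm10 coordinates of the authors' list and numbered from 5′ to 3′ along the gene. RefSeq places Arntl at chr7:113178471-113314126 (+), Clock at chr5:76209868-76305603 (-) and Npas2 at chr1:39193702-39363240 (+). Whether a site lies in an exon or an intron was not analysed here. Arntl has sites 1 (113243577 to 113243616) and 2 (113243662 to 113243709), 70.5 and 70.4 kb before the annotated end, and site 3 (113314007 to 113314034), 92 bp before the end. Clock has site 1 (76266358 to 76266399) 56.5 kb and site 2 (76235130 to 76235173) 25.3 kb before the end, and 4 sites in the last 2.34 kb, site 3 (76212204 to 76212222), site 4 (76210963 to 76211013), site 5 (76209923 to 76209941) and site 6 (76209864 to 76209905). Npas2 has site 1 (39331723 to 39331739) 31.5 kb before the end and sites 2 to 5 in the last 154 bp, from 39363072 to 39363241. Tag counting does not show whether a tag inside the gene comes from a cleaved end or from priming at an internal A-rich stretch.

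Among the 3 filtered Arntl sites, the 2 upstream ones held most counts in total RNA, and the site near the gene end did in polysomal RNA. These 3 sites held a mean of 25.3 of 47.3 counts per library at all 11 Arntl sites of the unfiltered list in total RNA. In nuclear RNA they held 83.3 of 161, and in polysomal RNA 11.8 of 17.4. Of the counts at the 3 filtered sites in wild-type total RNA (912 over 36 libraries), site 1 held 29.3%, site 2 40.9% and site 3 29.8%. In nuclear RNA (3000 counts) the shares were 35.5%, 59.1% and 5.37%, and in polysomal RNA (426 counts) 8.45%, 24.4% and 67.1%. Site 3 had the lower share in nuclear RNA at 6 of 6 time points and the higher share in polysomal RNA at 5 of 5 with counts, where it ranged from 54.7% to 94.4% by time point.

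These shifts passed the test of site usage, which compares a site's counts with those of its gene. In nuclear against total RNA the log2 change was -1.93 for Arntl site 3 (SE 0.31, adjusted p = 1.37e-07), 0.63 for site 1 (adjusted p = 0.0219) and 0.48 for site 2 (adjusted p = 9.18e-04), where 73.8% of sites passed. Some groups of 6 polysomal libraries had no count, so the polysomal sites of Arntl and all Npas2 sites were tested with 1 series effect common to all time points, a fit chosen after seeing the data. By it, site 3 of Arntl rose by 1.04 (SE 0.23, adjusted p = 6.38e-05), and sites 1 and 2 were at -1.74 (SE 0.33, adjusted p = 6.01e-06) and -0.84 (SE 0.29, adjusted p = 0.00910), where 66.0% of sites passed. With replicates 1 to 3 alone, the nuclear change of site 2 had an adjusted p of 0.162.

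The filtered Arntl sites differed in how far their nuclear levels lay above total RNA, though they hold only part of the gene's site counts. Site 1 was at 7.12 ± 7.58 CPM (SD, n = 36) in nuclear and 0.945 ± 0.95 in total RNA, a log2 difference of 3.05 (SE 0.29, adjusted p = 1.15e-15). Site 2 was at 12.0 ± 11.5 against 1.30 ± 1.07 CPM, a difference of 3.10 (SE 0.23, adjusted p = 6.56e-21). Site 3 was at 1.02 ± 0.983 against 0.969 ± 1.03 CPM, a difference of 0.53 (SE 0.32, adjusted p = 0.124). In this test 77.1% of sites passed. The most counted Arntl site outside the filtered list (chr7:113258882-113258895) held 14.3% of the nuclear Arntl site counts and was at 5.58 ± 7.24 CPM in nuclear and 0.335 ± 0.378 in total RNA, with no test. Against polysomal RNA, sites 1 and 2 fell by 2.94 (SE 0.39) and 2.00 (SE 0.35) and site 3 was at 0.00 (SE 0.31, adjusted p = 0.997), with 69.5% of sites passing in that fit.

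Among the 3 filtered sites, the higher Arntl level in Bmal1-/- liver was likewise found at sites 1 and 2. Their log2 differences were 2.04 (SE 0.24, adjusted p = 2.15e-10) and 1.76 (SE 0.17, adjusted p = 3.93e-14), and that of site 3 was 0.49 (SE 0.24, adjusted p = 0.133), where 26.5% of sites passed. Of 1936 Bmal1-/- counts at the filtered sites, site 3 held 13.1%. The filtered sites held a mean of 53.8 of 102 counts per Bmal1-/- library at all 11 Arntl sites. The most counted unfiltered Arntl site was at 1.18 ± 0.470 CPM in Bmal1-/- and 0.335 ± 0.378 in wild-type total RNA, with no test. The usage test gave -0.87 for site 3 (SE 0.23, adjusted p = 0.0103), where 6.34% of sites passed. It gave 0.72 for site 1 (adjusted p = 0.0482), which had adjusted p = 0.448 with 1 series effect. With replicates 1 to 3 alone, the adjusted p of site 3 was 0.186.

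The share of Arntl site 3 was set side by side at each time point, with no test. At ZT2 it was 49.3% in wild type (95% interval 42.4 to 56.2, exact binomial, counting error only) and 10.4% (6.94 to 14.9) in Bmal1-/-, and at ZT6 it was 48% (27.8 to 68.7, of 25 counts) and 8.71% (5.82 to 12.4, of 310 counts). At ZT14 it was 5.66% (2.10 to 11.9) in wild type and 18% (13.9 to 22.7) in Bmal1-/-, the only time point at which it was higher there. The interaction of share with time was not tested. In wild-type total RNA the 3 sites passed the rhythm test, with peaks at ZT19.9 (SE 0.49 h), ZT20.1 (SE 0.46 h) and ZT22.7 (SE 0.46 h), where 7.13% of sites passed. The difference between these peaks was not tested. In Bmal1-/- liver none of the 14 sites passed the rhythm test, nor did any site of the list by edgeR (0.0%, with 909 sites at an unadjusted p under 0.05, and DESeq2 not run on sites).

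**Figure D5:**
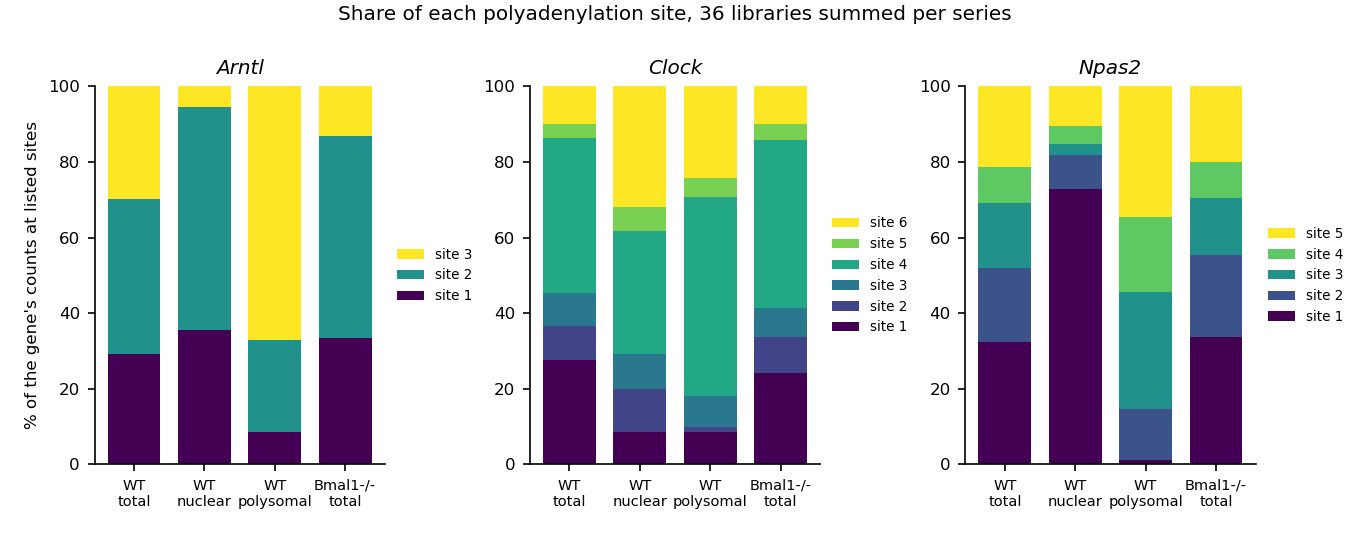
Share of each listed polyadenylation site (y axis, percent of the gene's counts at its listed sites) for Arntl, Clock and Npas2, with counts of 36 libraries summed in each of the 4 series (x axis) and sites numbered from 5′ (dark) to 3′ (light). Arntl site 3 takes 5.37% in nuclear and 67.1% in polysomal RNA, and Npas2 site 1 takes 72.8% and 1.12%.

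Among the 6 filtered Clock sites, which leave out the most counted site described below, site 4 (1095 bp before the annotated end) and site 1 far upstream held the largest shares in wild-type total RNA. There site 4 held 41.0% and site 1 27.7% of 3540 counts. Site 1 fell to 8.53% in nuclear and 8.55% in polysomal RNA, with usage changes of -1.89 (SE 0.19, adjusted p = 8.98e-14) and -1.64 (SE 0.20, adjusted p = 1.36e-10). Site 6, at the gene end, held 10% in total, 31.9% in nuclear and 24.2% in polysomal RNA, and rose by 1.66 (SE 0.18) and 1.31 (SE 0.19, 66.9% of sites passing in that fit). Site 2 held 8.81% in total and 1.41% in polysomal RNA, a change of -2.63 (SE 0.33, adjusted p = 1.74e-10), and its level was at -2.86 (SE 0.36), where 70.2% of sites passed. Of the 5 Clock sites tested for usage, none passed between Bmal1-/- and wild type, where 6.34% of all sites did. With replicates 1 to 3 alone, site 1 was at -0.54 (adjusted p = 0.00106). In level, only site 4 passed that comparison (0.39, SE 0.10, adjusted p = 0.00142, and 0.253 with replicates 4 to 6 alone), where 26.5% of all sites did. Site 2 was at 0.41 (adjusted p = 0.0542, and 0.0362 without the ZT14 library). For so few sites, these counts beside those shares are a description only.

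Among the 5 filtered Npas2 sites, site 1, upstream of the other filtered ones, had its highest share in nuclear and its lowest in polysomal RNA. It held 32.4% of 370 filtered-site counts in wild-type total RNA, 72.8% of 390 in nuclear, 1.12% of 267 in polysomal and 33.6% of 2713 in Bmal1-/- RNA. In nuclear RNA the filtered sites held a mean of only 10.8 of 90.0 counts per library at all 20 Npas2 sites. Site 1 had 284 nuclear counts, against 594 at the most counted unfiltered site. With 1 series effect the level of site 1 rose by 2.19 in nuclear RNA (SE 0.41, adjusted p = 2.42e-06, 76.6% of sites passing). In polysomal RNA it was at -3.79 (SE 0.48, adjusted p = 1.34e-10, 69.5% of sites passing). Its usage rose by 1.07 in nuclear RNA (SE 0.17, adjusted p = 9.74e-08), where 73.5% of sites passed. The 5 filtered Npas2 sites all rose in Bmal1-/- liver, by 2.62 to 2.97 (26.2% of sites passing), and none passed the usage test (adjusted p of 0.826 or more, 6.36% of sites passing). In wild-type total RNA sites 1, 3 and 5 passed the rhythm test. In nuclear RNA, where 1.57% of sites passed it, the 3 Arntl sites and Clock site 5 did, and in polysomal RNA, where 1.84% did, the 3 Arntl sites, Clock site 4 and Npas2 site 2.

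Site and gene tables do not hold the same reads. For Npas2 in nuclear RNA the gene table had a mean of 4.86 counts per library, while all 20 Npas2 sites of the unfiltered list summed to 90.0 and the 5 filtered ones to 10.8. The most counted unfiltered Npas2 site (chr1:39213414-39213434) was at 4.01 ± 6.47 CPM in nuclear and 0.230 ± 0.358 in total RNA. For Clock, 1 unfiltered site (chr5:76231907-76231967) was at 40.8 ± 26 CPM in total RNA and held 58.3% of all Clock site counts. In polysomal RNA this site was at 65.0 ± 17.1 CPM and held 73.1%, and in nuclear RNA it was at 31.3 ± 13.0 CPM. Its mean polysomal level lay above that in total RNA, where the Clock gene count lay below, with no test of the site. The ranges overlapped (27.3 to 97.5 CPM in polysomal and 21.0 to 182 in total RNA). Over the 36 polysomal libraries the site held 12593 counts and the Clock gene count was 5982, so many of its reads are not in the gene count. The site was placed in Clock by strand and position, with no check for other genes. Shares above are thus shares of the filtered sites only.

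The genes most like Clock and Npas2 were ranked by Pearson's r of mean log2(CPM + 0.5) over the 24 groups of series and time, among 11848 genes. These groups share libraries and depth, so r is a description only. For Clock they were Clpx (r = 0.952), Trim2 (0.932) and Tubb2a (0.915). For Npas2 they were Sox9 (0.941), Loxl4 (0.940) and Grk5 (0.939), the first of which is among the cholangiocyte markers above. Loxl4 was at 3.04 CPM in wild-type and 23.2 in Bmal1-/- total RNA, and Grk5 at 5.61 and 25.7.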

How the data were processed

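Lexogen QuantSeq 3′ libraries were made from 2 ug of RNA each, per the labels' protocols. The authors deposited raw counts per gene and per polyadenylation site for 144 libraries, made with STAR 2.4.2a, edgeR and HOMER on mm10 (GRCm38.p5), per the submitters' processing notes, and a filtered site list. Normalized tables were not used. The members and gene lists were chosen with earlier results of these data known. Columns were mapped to samples by title. A site was given to a gene when it lay on the gene's strand within the RefSeq gene or up to 1000 bases past its end.

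Counts were fitted with edgeR 4.0.16 (R 4.3.3, robust quasi-likelihood, TMM, Benjamini-Hochberg over all genes or sites, threshold 0.05). Genes needed a mean of 3 counts per library, sites 1. Levels are the mean of 6 time-point contrasts, and rhythm is a 24 h cosine and sine. Site usage took the gene's counts over its listed sites as offset, for sites with at least 5% of a gene with at least 10 counts. DESeq2 1.42.0 was an alternative. Named genes were the 3 members, their sites, at most 2 genes per role list past the threshold with the largest change, and 3 genes by likeness per member, which for Arntl is not reported here. Depth is given in the report, and intervals and limits of 3 counts cover counting error only. No 2 libraries of a group agreed within sampling noise (smallest chi-square per degree of freedom 4.03 over 360 pairs). Scripts were tested on simulated data.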

Additional observations from a re-analysis of the deposited data

Results flagged for a closer look

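Dixon's 95% limit, which chance passes in about 1 in 20 groups of normal values, need not keep that rate for CPM of low counts. In groups of 6 libraries, 8 of 70 groups had 1 library farther from the others than this limit allows, which is not read as an excess. For Npas2 these were the ZT14 libraries named above, at 6.06 CPM in total (next 0.22), 6.65 in nuclear (next 0.630) and 14.4 in polysomal RNA (next 0), and 1 library at ZT2 in total RNA at 5.08 (next 3.35). For Arntl they were a nuclear library at ZT18 at 104 CPM (next 65.2) and polysomal libraries at ZT6 at 7.79 (next 3.99) and at ZT10 at 0.864 (next 0.243). For Clock it was a total library at ZT6 at 45.2 CPM (next 37.3).

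The daily rhythm differed between Bmal1-/- and wild-type liver by the interaction term of edgeR's quasi-likelihood test, with adjusted p = 1.65e-10 for Arntl, 6.60e-06 for Clock and 0.0123 for Npas2.

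Sites outside the filtered list held counts in wild-type total RNA. The most counted one had a mean of 0.335 CPM for Arntl (chr7:113258882-113258895), 40.8 CPM for Clock (chr5:76231907-76231967) and 0.230 CPM for Npas2 (chr1:39213414-39213434).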

How the results depend on the processing

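Of 419 alternatives for results of the 3 genes, 390 kept direction and side of the threshold, 13 lost the call, 10 gained it and 6 turned the direction. For their sites the numbers were 405, 30, 15 and 18 of 468. The values below are those that changed, log2 differences unless given as counts of genes or sites. Those with fewer libraries come from smaller fits, and for the others the cause was not tested.

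With replicates 1 to 3 only, Bmal1-/- against wild type was 0.077 for Arntl at ZT2 and -0.16 at ZT18, and for Clock 0.46 at ZT6 and -0.00779 at ZT22. The level of Clock site 1 was at -0.14 and the usage of Clock site 3 at 0.19. In nuclear RNA usage was -0.15 for Clock site 2 and -0.00447 for site 3, and the Npas2 rhythm was 7.36. In polysomal RNA Clock was at -0.21, its site 4 at 0.41, its rhythm at 0.99, and Npas2 at 0.91. Called genes numbered 482 at ZT2 (main 1171) and 662 at ZT18 (1536), and for a difference in rhythm 228 in Bmal1-/- (600) and 0 in polysomal RNA (15). Rhythmic genes numbered 1311 in total (2253), 171 in nuclear (695), 113 in polysomal (793) and 0 in Bmal1-/- RNA (5), rhythmic sites 1105 (2078), 120 (414) and 57 (505) in the wild-type series, and sites changed in usage in Bmal1-/- 579 (1039).

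With replicates 4 to 6 only, Bmal1-/- against wild type was 1.54 for Arntl at ZT14, 0.21 for Clock on average, -0.049 at ZT6 and 0.52 at ZT14, and for Npas2 2.81 at ZT6, 2.00 at ZT14, 2.90 at ZT18 and 1.85 at ZT22. The difference in rhythm was 1.18 for Clock and 2.02 for Npas2. Clock site levels were -0.42 for site 3 and -0.15 for site 6, and usage 0.15 for site 1 and -0.27 for site 6. Polysomal values were -2.31 for Npas2, -0.44 for Clock site 5 in level and 0.19 for site 3 in usage. Rhythms were 1.25 for nuclear Clock, 11.2 for polysomal and 1.99 for total Npas2. Called genes numbered 392 at ZT6 (1277), 956 at ZT10 (2065), 159 at ZT14 (1200) and 280 at ZT22 (877), and for a difference in rhythm 172 in Bmal1-/- and 6 in polysomal RNA. Rhythmic genes numbered 618 in total, 234 in nuclear and 0 in Bmal1-/- RNA, and rhythmic sites 338 in total and 129 in nuclear RNA.

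Without the 3 ZT14 libraries, Npas2 was at 1.15 at ZT2 in Bmal1-/- and -0.97 in polysomal RNA, its rhythm at 6.94 in nuclear and 8.66 in polysomal RNA, and Clock site 4 at 0.19 in polysomal RNA. Without the libraries with Xist, Clock at ZT22 was at -0.029 and 3 genes were rhythmic in Bmal1-/- RNA. Both were chosen after seeing the data, as was the fit with 1 series effect, in which usage of Npas2 site 3 in Bmal1-/- was -0.081, and, also without the ZT14 libraries, -0.065, with Clock site 4 at 0.20 in polysomal RNA. Without polysomal replicate 1, 65 genes differed in rhythm in polysomal RNA.

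DESeq2 called 37 genes for a difference in rhythm in polysomal RNA and 0 as rhythmic in Bmal1-/- RNA. A mean of at least 10 counts gave 0 and 1, and no filter 424 and 21, with 5 for the nuclear difference and 2107 rhythmic genes in polysomal RNA. A minimum of 5 counts put Clock site 4 at 0.13 in polysomal RNA. Mean shares, tested by permutation, differed by 0.0733 points for Clock site 3 in polysomal RNA and by -13.2 points for Npas2 site 3 in Bmal1-/-.

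Samples with the same replicate number correlated in their deviations at over 0.1 in 34 of 36 nuclear, 15 of 36 Bmal1-/- and 0 of 36 polysomal pairs with total RNA, and best with their own number in 31, 12 and 0. The labels do not say that a number marks a shared animal, and in none of the 3 comparisons was every pair over 0.1 (the lowest nuclear correlation was 0.00516), so the numbers were not used to pair the samples, although the nuclear correlations are a hint from the data that they may. In fits of 1 series, a replicate block was a term per replicate number over all time points, which pairs no libraries across series. With that block, the Npas2 rhythm was 3.91 in nuclear (adjusted p = 0.0164) and 5.14 in polysomal RNA (adjusted p = 0.0194). Rhythmic genes then numbered 0 in Bmal1-/- and 1431 in polysomal RNA. With the same terms in Bmal1-/- against wild type, sites changed in usage numbered 1731. In the nuclear and polysomal comparisons with total RNA, the block paired libraries by time point and number. There, genes differing in rhythm numbered 1 in nuclear and 0 in polysomal RNA.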
